A study of Mus musculus with 3 samples.

Results

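The genes described here encode the nuclear part of the mitochondrial respiratory chain and ATP synthase, read in unstimulated N1E-115 neuroblastoma cells. Members were chosen by gene symbol alone, not by their counts: symbols beginning with Nduf, Uqcr, Cox4 to Cox8 or Atp5, together with Sdha, Sdhb, Sdhc, Sdhd, Cycs and Cyc1. Ndufa4l2 and names containing -ps were left out. This rule was set with earlier results of these data known. The rule took 93 of 24384 named genes. Of these, 36 encode subunits of complex I, 4 of complex II, 9 of complex III, 19 of complex IV and 15 of complex V, and 1 encodes cytochrome c. The other 9 encode assembly or associated factors that share the Nduf and Atp5 prefixes, namely Ndufaf1 to Ndufaf7, Atp5s and Atp5sl. Ndufa4, first named as a complex I subunit, was placed with complex IV, where the protein is now assigned. Cox7a2l, a factor of respiratory supercomplexes, was also counted with complex IV.

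Poly(A) RNA was sequenced in 3 libraries of 1 group. N1E-115 is an established mouse neuroblastoma line, a tumour of sympathetic neuron precursors, and the labels give its cells as wild-type neuroblasts with no treatment, taken at day 0. No label says whether the libraries came from separate cultures, so the spread between them, and any p-value resting on it, may be technical. The libraries held 17731376, 13942014 and 15432235 counts in replicates 1, 2 and 3. Levels are given as CPM, counts scaled to a library total of 1000000, so that 3 counts, the upper limit that a count of 0 allows, correspond to 0.169, 0.215 and 0.194 CPM. All 6 neuroblast markers examined were detected, with a summed level of 2891 to 3095 CPM. Of 15 markers of glia, fibroblasts, endothelium, blood, epithelium and muscle, 3 were detected and 3 had no counts (Ptprc, Epcam and Myh6).

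The respiratory chain, located in the inner mitochondrial membrane, passes electrons from NADH and succinate to oxygen. Complex I oxidizes NADH and complex II oxidizes succinate, and both reduce ubiquinone. Complex III moves the electrons on to cytochrome c, and complex IV hands them to oxygen. Complexes I, III and IV pump protons, and complex V, the ATP synthase, lets them flow back through a rotor to make ATP. Most subunits are encoded in the nucleus and imported, while a small hydrophobic core of complexes I, III, IV and V is encoded by mitochondrial DNA and was not analysed here. Transcription of the nuclear genes is known to involve nuclear respiratory factor 1 (NRF-1), the ETS-family factor GABP (also called NRF-2) and YY1.

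Promoter sequences are shown first because the nuclear subunits are scattered over the genome and share no locus. The members lay on 19 chromosomes, with 10 on chromosome 7 as the most on any and 3 on X. RefSeq promoters (build GRCm38.p6, 250 bases before to 50 after the annotated start) were matched for 77 members, 74 of them by their listed symbol, giving 83 promoters. The NRF-1 core GCGCATGCG stood in 11 of the 83 promoters (13.3%) on either strand, against 1.75% of all 32851 promoters and 3.78% of the 11398 promoters of detected genes. The YY1 core AAGATGGC stood in 12 (14.5%), against 2.75% of all and 4.45% of those of detected genes. The ETS core CCGGAAG stood in 17 (20.5%), against 8.86% of all and 17.9% of those of detected genes. At least 1 of the 3 cores was present in 35 promoters (42.2%), against 12.5% of all and 24.2% of those of detected genes. By gene, 34 of the 77 matched members carried at least 1 of the 3 letter strings in this window, and the members without a matched promoter were not examined. Because the NRF-1 core is nearly palindromic, it can match both strands at 1 site, and each promoter was counted once per motif. These matches describe letters and were not measured as binding.

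The following 60-base windows each carry 1 core in capitals, written 5′ to 3′ on the strand of the gene, and were chosen as examples from the electron carrier and complexes I, IV and V. The first 4 hold the NRF-1 core or its reverse complement and the last holds the YY1 core.
Cycs (chr6:50566597-50566656, minus strand): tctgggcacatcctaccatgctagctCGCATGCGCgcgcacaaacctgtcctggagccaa
Atp5g2 (chr15:102671056-102671115, minus strand): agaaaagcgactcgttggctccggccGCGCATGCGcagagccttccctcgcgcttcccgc
Ndufa11 (chr17:56717676-56717735, plus strand): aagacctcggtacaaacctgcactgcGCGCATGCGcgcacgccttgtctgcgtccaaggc
Cox6a1 (chr5:115349087-115349146, minus strand): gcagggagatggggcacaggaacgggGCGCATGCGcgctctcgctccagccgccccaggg
Atp5j (chr16:84835031-84835090, minus strand): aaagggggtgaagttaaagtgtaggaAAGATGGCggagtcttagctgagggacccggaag
The first base of the core lay 61 bases before the start in Cycs, 42 in Atp5g2, 60 in Ndufa11, 162 in Cox6a1 and 88 in Atp5j. The Cox6a1 and Atp5j promoters also held the ETS core. In Atp5j it began 61 bases before the start and stands, not capitalized, at the end of the window shown.

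Nearly all members were expressed. At least 1 CPM in every library, the level called detected, was reached by 88 of 93 members and by 11522 of all 24384 named genes. At least 100 CPM in every library was reached by 48 members and by 2250 of all genes, and at least 1000 CPM by 1 member, Atp5b, among 64 genes. The 5 members not detected were Ndufs5, which fell below 1 CPM in replicate 1 only, the muscle-associated Cox6a2 with 5, 9 and 1 counts, and Cox6b2, Cox8b and Cox8c, each with no counts in any library. Together the members took 1.55, 1.80 and 1.69% of the counts (mean 1.68 ± 0.13%, SD, n = 3). ATP synthase held the most, at 0.674, 0.771 and 0.738%, and complex I followed at 0.334, 0.392 and 0.361%. Complex IV held 0.231 to 0.282%, complex III 0.168 to 0.193% and complex II 0.0933 to 0.104%. For every complex, and for cytochrome c and the assembly group, the share was lowest in replicate 1 and highest in replicate 2.

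Levels of different genes were compared per kilobase (kb) of transcript, since the subunits differ widely in length. Per kb of all annotated exons merged, the median over members was 145 CPM for complex V, 102 for complex III, 96.5 for complex II, 72.5 for complex IV, 49.5 for complex I and 8.83 for the assembly group. Merged exons include long retained-intron forms of some short genes (6443 nt for Atp5l, whose main transcript has 544 nt). The length of the main annotated transcript was therefore also used, a choice made after seeing these lengths. On that scale the medians were 301 for complex V, 222 for complex IV, 177 for complex III, 111 for complex II, 87.8 for complex I and 10.4 for the assembly group. Complex V was highest, and complex I the lowest of the 5 complexes, on both scales. The place of complex IV changed, from below complexes II and III to above them. It also rests on its 4 undetected tissue forms: with detected members only, its median per kb of merged exon was 138, above complexes II and III, whose medians did not change. The median of all detected genes was 7.91 CPM per kb of merged exon and 12.2 per kb of main transcript. In what follows, "per kb" without more means per kb of main transcript.

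**Figure D1:**
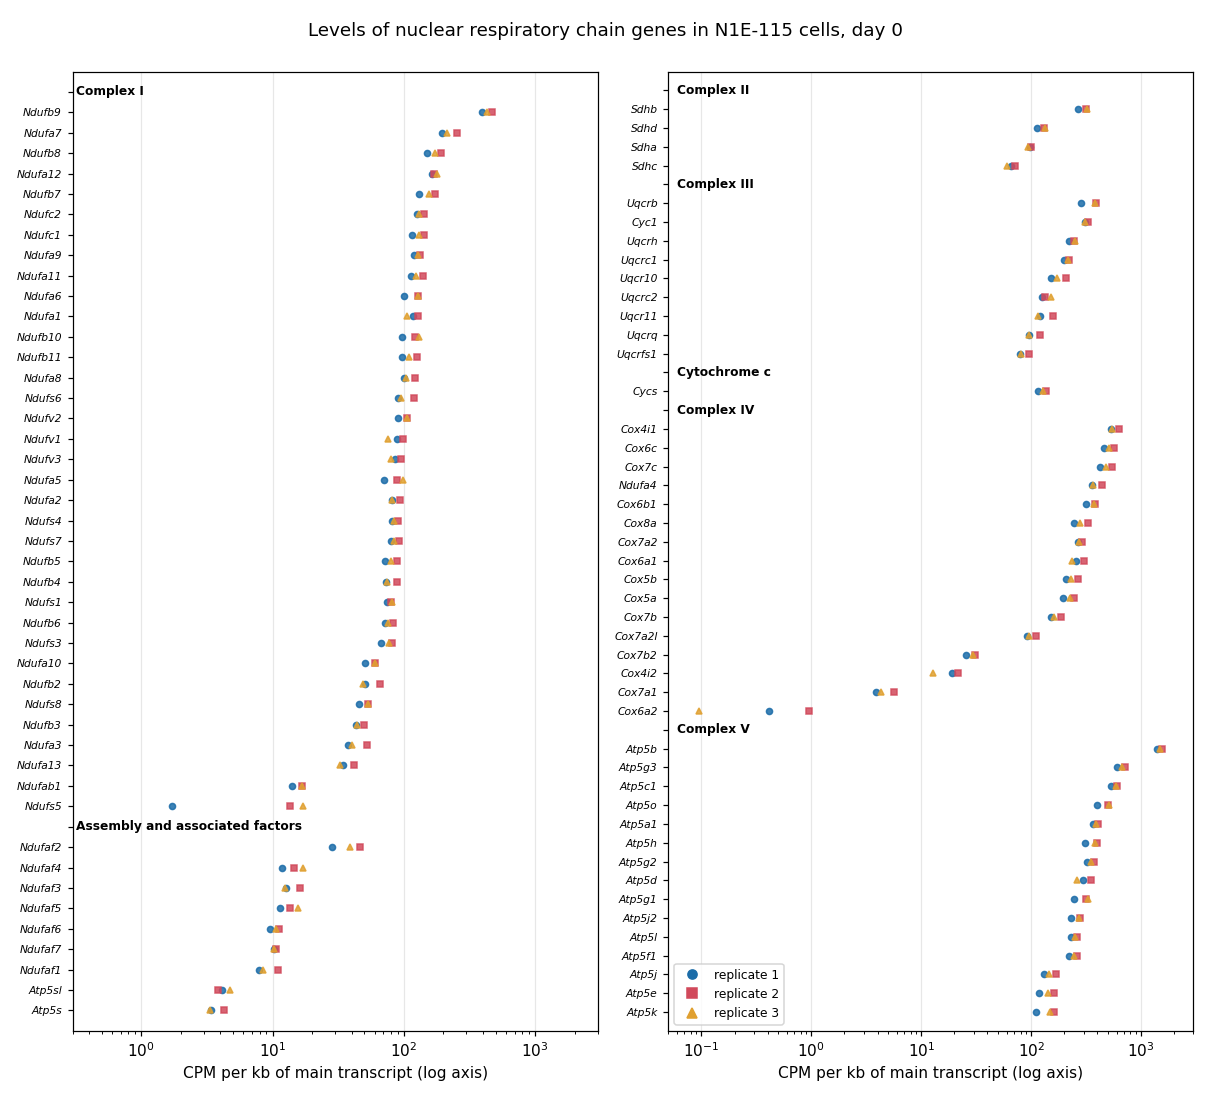
Level of each member with counts in CPM per kb of main transcript (log axis), grouped by complex, with 1 symbol per library; the 3 members without counts and 1 not reported here are not drawn. The symbols of 1 gene mostly lie close together, Atp5b lies highest at 1484, the assembly group has a median of 10.4, and the symbols of Ndufs5 and Cox6a2 lie far apart.

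Complex I takes electrons from NADH through a peripheral arm of conserved core subunits, around which many supernumerary subunits are wrapped. The 7 nuclear core genes were all detected. Ndufv2, a carrier of an iron-sulfur cluster, was at 154, 181 and 178 CPM (101 ± 8.9 CPM per kb), and Ndufv1, the NADH- and flavin-binding subunit, was at 148, 165 and 125 CPM (88 ± 12 per kb). Both overlapped with each other across libraries on the per kb scale. Ndufs1, Ndufs7 and Ndufs3, further subunits of the peripheral arm, had 78.7 ± 3.4, 85.2 ± 5.8 and 75.2 ± 7.3 CPM per kb. Ranges overlapped, but within each library Ndufs7 was above both others, whereas Ndufs1 and Ndufs3 changed places. Ndufs8, a subunit with iron-sulfur clusters, was the lowest of the core genes at 50.8 ± 4.3 CPM per kb, and its highest library (53.5) was below the lowest library of every other core gene. This place depends on the length used, since per kb of merged exon Ndufs1 was the lowest at 25.9 ± 1.1 and Ndufs8 was at 38.7 ± 3.2.

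The 29 supernumerary genes of complex I ranged more widely. Ndufb9 was at 279, 332 and 303 CPM (433 ± 37 CPM per kb), above every other complex I gene in each library on the per kb scale. Ndufa7 followed at 220.3 ± 30 CPM per kb, with Ndufb8 at 171.6 ± 22.2, Ndufa12 at 171.2 ± 7.3 and Ndufb7 at 153 ± 20.4. The ranges of the last 3 overlapped. Within each library Ndufb8 was above Ndufb7, while Ndufa12 changed places with both. Per kb of merged exon, the genes after Ndufb9 (296 ± 25.5) were instead Ndufa12 (121 ± 5.1), Ndufc2 (119.8 ± 7.5), Ndufa1 (117 ± 11.5) and Ndufb11 (110.4 ± 14.8), so that only the first place held on both scales. Low levels were found for Ndufa3 (43.5 ± 7.9 per kb), Ndufa13 (36.2 ± 4.6), also known as Grim-19, and Ndufab1 (15.8 ± 1.6). Ndufab1 encodes the mitochondrial acyl carrier protein, which also serves in lipoic acid and fatty acid synthesis. Its 54.9 ± 5.5 CPM are spread over a main transcript of 3479 nt, whereas the main transcripts of Ndufa3 and Ndufa13 have 515 and 1251 nt. Per kb of merged exon, the lowest detected genes were Ndufb5 (17.3 ± 1.9), Ndufab1 (7.97 ± 0.80) and Ndufb2 (4.45 ± 0.73). The detected complex I subunits spanned a 27.4-fold range from Ndufab1 to Ndufb9 per kb of main transcript and 66.4-fold per kb of merged exon.

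Ndufs5, a small supernumerary subunit, was the only member whose counts varied between replicates beyond genes of similar count. Its row held 15.529, 99.578 and 137.635 counts, or 0.902, 7.17 and 8.94 CPM after rounding to whole counts. Replicate 1 was far below replicates 2 and 3. In an edgeR negative binomial fit with an intercept only, the deviance gave p = 2.03e-11 and a Benjamini-Hochberg adjusted p = 4.80e-08. It was 1 call among 89 members tested, beside 76 among all 11821 genes tested, a background of 0.643%. Fractional counts can arise when reads that match several genes are divided between them. Only Ndufs5 and Cox7c had them among the members, against 578 of all genes.

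The Ndufs5 gene (ENSMUSG00000028648.13) lies on chr4:123712710-123718202 of mm10, on the minus strand. Its near-identical copy BC002163, annotated as a processed pseudogene, lies on chr16:42955631-42955949 on the plus strand. The 319 nt of the copy aligned over their whole length to positions 93 to 411 of the 525 nt Ndufs5 transcript, which covers the coding sequence at 93 to 410. They differed at 2 positions, T81C and A105G, counted from 1 at the first base of the Ndufs5 coding sequence, with the Ndufs5 base first. The windows below cover coding bases 41 to 140, each within 1 exon or the unspliced copy, with the differing bases in capitals. Over the rest of the windows the letters are the same, so a read that covers neither capital matches both loci.
Ndufs5 (chr4:123715940-123716039, minus strand): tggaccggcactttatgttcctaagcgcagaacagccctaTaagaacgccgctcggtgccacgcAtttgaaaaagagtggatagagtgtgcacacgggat
BC002163 (chr16:42955671-42955770, plus strand): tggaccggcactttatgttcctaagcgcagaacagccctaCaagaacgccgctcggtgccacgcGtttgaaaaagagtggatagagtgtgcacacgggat

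The pseudogene row held most of the shared counts, with 867.471, 840.422 and 872.365 in replicates 1 to 3. Added to the Ndufs5 row, the counts came to exactly 883, 940 and 1010, whole numbers in every library. Ndufs5 was assigned 1.76, 10.6 and 13.6% of that sum. The sum corresponds to 49.8, 67.4 and 65.4 CPM (60.9 ± 9.7), and its coefficient of variation (CV) was 15.9%, against 74.8% for the Ndufs5 row alone and 10.5% for the pseudogene row. With both rows summed, the same edgeR test gave an adjusted p = 0.985, and the call was lost. It was also lost when replicate 1 was left out, and with genes of fractional counts left out Ndufs5 is not tested. The pseudogene row alone gave an edgeR adjusted p = 0.9997. The level of Ndufs5 itself is therefore uncertain: its row lists 5.67 ± 4.22 CPM, the share assigned to it, while both rows together hold 60.9 ± 9.7 CPM.

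**Figure D2:**
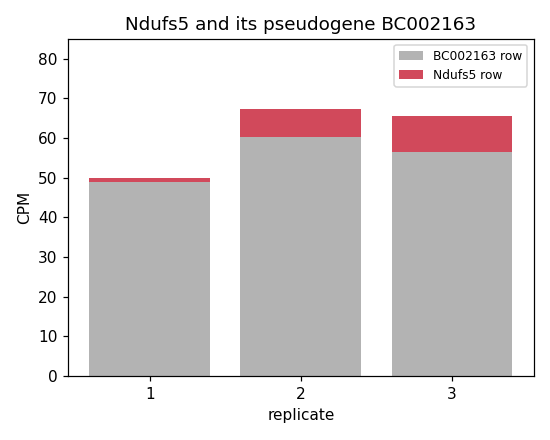
CPM assigned to the Ndufs5 row (red) and to its pseudogene BC002163 (grey), stacked for each replicate. The stacks reach 49.8, 67.4 and 65.4 CPM, and the red part takes 1.76, 10.6 and 13.6% of them.

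Near-identical copies were searched for among the members only, so no share over all genes can be set beside them. A search of the annotated transcripts found 42 genes at 95% identity or more over at least 100 nt and 25% of the main transcript, for 24 members, and 37 of the copies were processed pseudogenes. All 24 members were among the 84 subunits and cytochrome c. None of the 9 genes of the assembly group had such a copy, a difference that was not tested. Atp5l had the most, with 9. By their GENCODE symbol, only 3 of the copies were rows of the table, 1 beside Ndufs5 and 2 beside Cox7c. Older symbols of the copies were not searched. The Cox7c row and the Gm12338 row summed to 4123, 4131 and 4061, again whole, and Cox7c took 98.9, 98.5 and 98.9% of them. For Cox7c the division between rows therefore changed the level little, unlike for Ndufs5. For the other members with copies, Atp5g2 and Atp5l among them, no row of a copy was found. How reads matching both a member and its copy were counted is not known. Any effect on the levels of these members was not tested.

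Complex II, or succinate dehydrogenase, is the only complex of the chain encoded wholly in the nucleus and is also an enzyme of the citric acid cycle. All 4 genes were detected. Sdhb, the iron-sulfur subunit, had 303, 363 and 364 CPM (301 ± 31 CPM per kb) and was above the others in every library. Sdhd, a membrane anchor, was at 138, 160 and 163 CPM (125 ± 10.9 per kb). Sdha, which carries the flavin and binds succinate, was at 283, 289 and 270 CPM (96.7 ± 3.4 per kb), and was among the members with the smallest spread (CV 3.54%). Sdhc, the other membrane anchor, was the lowest at 65.9 ± 5.9 per kb. The 4 genes did not overlap on the per kb scale and spanned 4.56-fold, but on merged exons the span was 2.39-fold and Sdha (68.0 ± 2.4) and Sdhc (64.3 ± 5.7) overlapped.

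Complex III oxidizes ubiquinol, and its nuclear core consists of cytochrome c1 and the Rieske protein. Cyc1, the cytochrome c1 gene, had 468, 497 and 471 CPM (315 ± 10.4 CPM per kb) with a CV of 3.30%. Uqcrfs1, the Rieske iron-sulfur protein gene, had 109, 129 and 109 CPM (85 ± 8.6 per kb) and was the lowest of the complex. These 2 catalytic subunits thus stood near opposite ends of their complex. Uqcrb, which binds ubiquinone, was at 151, 206 and 204 CPM (349 ± 58 per kb), lower in replicate 1 than in both others (edgeR adjusted p = 0.790). Uqcrh, the hinge protein at the cytochrome c docking site, was at 239.6 ± 15.2 per kb. The core proteins Uqcrc1 and Uqcrc2, related to mitochondrial processing peptidases, were at 213 ± 13.1 and 138 ± 14 per kb. The small subunits Uqcr10, Uqcr11 and Uqcrq were at 177 ± 28.5, 131 ± 23.5 and 103 ± 14.6 per kb. The whole complex spanned 4.11-fold per kb of main transcript and 2.61-fold per kb of merged exon. Cycs, the gene of cytochrome c, which carries electrons to complex IV and is also released in apoptosis, had 360.0, 425 and 397 CPM (126 ± 10.4 per kb).

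Complex IV, cytochrome c oxidase, is built around catalytic subunits encoded by mitochondrial DNA. The 19 nuclear members were therefore all classed as supernumerary, with Cox7a2l counted among them. Several of them exist as pairs of genes, a widely expressed form and a form known from 1 or a few tissues. Among the widely expressed forms, Cox4i1 was the highest at 396, 466 and 401 CPM (565 ± 52 CPM per kb), followed by Cox6c (514 ± 51), Cox7c (483 ± 57) and Ndufa4 (389 ± 47). Cox6b1 was at 355 ± 35 per kb, Cox8a at 284 ± 40.2, Cox7a2 at 276 ± 12.3 and Cox6a1 at 264 ± 33. Cox5a and Cox5b, both on the matrix side, were at 222 ± 25.4 and 234 ± 27.9. Their ranges overlapped on this scale, but within each library Cox5b was above Cox5a. Per kb of merged exon they did not overlap, at 68.3 ± 7.8 for Cox5a and 128 ± 15.2 for Cox5b. The direction was thus the same on both scales, and the size of the difference depends on the length used. Neighbours in this order mostly overlapped across libraries. Cox7b was at 167 ± 18.8 and Cox7a2l, a factor of respiratory supercomplexes, at 98.7 ± 9.9. Per kb of merged exon the order of the highest was instead Cox6b1 (309.6 ± 30.2), Cox4i1 (272 ± 25.2), Cox8a (252 ± 35.7), Cox7c (231 ± 27.4) and Cox6a1 (214 ± 26.8).

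The tissue forms were far lower or without counts. Cox4i2, a form known from lung and from hypoxia, had 13.9, 15.6 and 9.27 CPM (17.8 ± 4.5 per kb). It was lowest in replicate 3, but not beyond genes of similar count (edgeR adjusted p = 0.893). Over summed counts (19701 against 607), Cox4i1 was 31.7-fold higher per kb, with an exact 95% interval of 29.2 to 34.4 for counting error only, or 16.5-fold per kb of merged exon. Cox7a1, the heart and skeletal muscle form, had 27, 31 and 26 counts (1.81 ± 0.37 CPM), and Cox7a2 exceeded it 60.5-fold (48.8 to 76.0). Cox6a2, also of heart and skeletal muscle, had 15 counts in all, and Cox6a1 exceeded it 559.6-fold (339 to 1000.5). That ratio rests on few counts: it ranged from 423-fold without replicate 3 to 925-fold without replicate 2. For Cox8b, the muscle form, and for Cox6b2 and Cox8c, known from testis, no counts were found. Cox8a was at least 1588-fold above Cox8b and at least 2021-fold above Cox8c, and Cox6b1 at least 3056-fold above Cox6b2, taking 3 counts over all libraries as the limit that a count of 0 allows. The muscle markers Ckm, Myh6 and Actc1 were all undetected, with a summed level of 0.113 to 0.287 CPM.

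Cox7b2, like Cox4i2 (246, 218 and 143 counts), was clearly counted. Cox7b2, known for expression in testis, had 247, 231 and 248 counts, or 13.9, 16.6 and 16.1 CPM (28.6 ± 2.6 per kb). Cox7b exceeded it 5.82-fold per kb (5.40 to 6.29), the smallest ratio among the complex IV pairs. Of these pairs, every common form was above its partner in 3 of 3 libraries. With 3 libraries an exact two-sided sign-flip test cannot go below p = 0.25, so the ratios are given without a test.

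**Figure D3:**
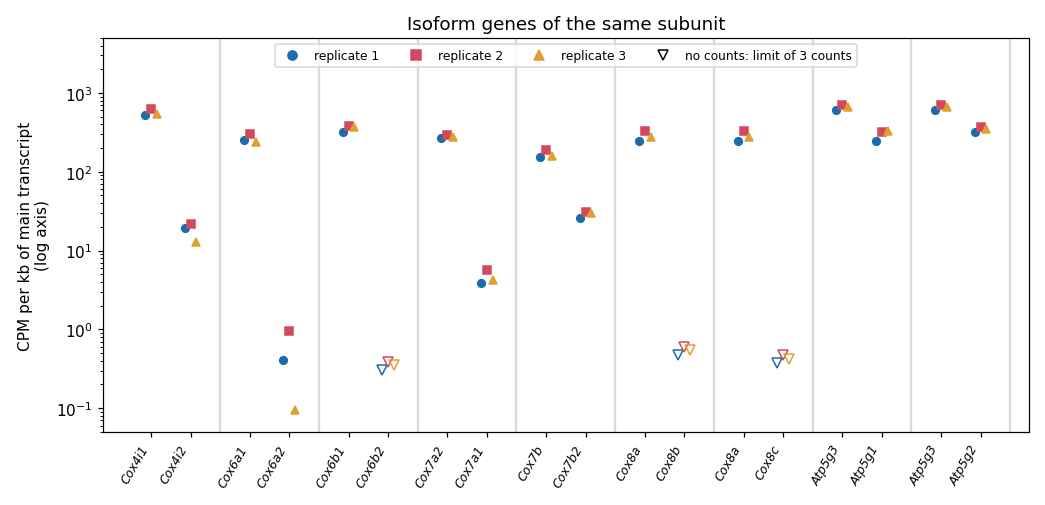
Level of isoform genes of the same subunit in CPM per kb of main transcript (log axis), 1 symbol per library; open triangles mark the limit of 3 counts where a gene had none. In each complex IV pair the common form lies above its partner in all libraries, with the narrowest gap for Cox7b and Cox7b2 (5.82-fold), while the gaps between the Atp5g genes are narrower still, 2.25-fold for Atp5g3 and Atp5g1 over summed counts.

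Complex V was the most abundant group. Atp5b, the catalytic beta subunit of the F1 head, had 2701, 2953 and 2873 CPM (2842 ± 129; 1484 ± 67 per kb), rank 9 of all named genes by CPM. It stood above every other member in every library. Atp5a1, the alpha subunit present in equal number in the head, was at 901, 1001 and 961 CPM (386 ± 20.4 per kb), and Atp5c1, the gamma shaft, was at 621, 707 and 690 CPM (577 ± 39 per kb). Atp5d, the delta subunit of the shaft, had 276, 323 and 242 CPM (301 ± 44 per kb), and Atp5e, its epsilon partner, 49.9, 67.6 and 59.7 CPM (140.3 ± 21.1 per kb). Transcript levels of the alpha and beta genes thus did not overlap in any library, although both proteins enter the head in equal number.

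The membrane ring of c subunits is encoded by 3 genes whose mature proteins are the same. Atp5g3 was the highest at 433, 506 and 480 CPM (663 ± 52 per kb), Atp5g2 followed at 234, 271 and 257 CPM (347 ± 25.5 per kb) and Atp5g1 at 145, 190 and 195 CPM (296 ± 46 per kb). Atp5g3 did not overlap with the others, whereas Atp5g2 and Atp5g1 did on the per kb scale. Within each library, however, Atp5g2 was above Atp5g1. Per kb of merged exon Atp5g2 (152 ± 11.1) and Atp5g1 (35.9 ± 5.6) did not overlap. Over summed counts Atp5g3 exceeded Atp5g2 1.91-fold per kb (1.86 to 1.95) and Atp5g1 2.25-fold (2.19 to 2.31). The size of both ratios depends on the length used, and per kb of merged exon they were 1.43-fold and 6.07-fold. Of the peripheral stalk, which holds the head still, Atp5o was at 470.1 ± 60 per kb, Atp5h at 363 ± 49, Atp5f1 at 242 ± 20.5 and Atp5j at 148 ± 18.6. The small membrane subunits Atp5j2, Atp5l and Atp5k, of which Atp5l and Atp5k serve in dimer formation, were at 261 ± 26, 246 ± 15.2 and 139.9 ± 26.1 per kb. Per kb of merged exon the lowest genes of the complex were Atp5g1 (35.9 ± 5.6), Atp5e (33.6 ± 5.1) and Atp5l (20.8 ± 1.3), and Atp5b was again the highest (671 ± 30.4).

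The assembly and associated factors were all detected, with medians below those of the subunits. Their medians were 10.4 CPM per kb of main transcript and 15.8 CPM, against 128 CPM per kb and 132 CPM for the 84 subunits and cytochrome c. Over all detected genes the medians were 12.2 CPM per kb and 37.5 CPM. Per kb of merged exon the group had a median of 8.83, against 7.91 for all detected genes. Ndufaf2, an assembly chaperone of complex I, had 19.2, 31.3 and 26.5 CPM (37.9 ± 9.0 per kb) and was lowest in replicate 1 (edgeR adjusted p = 0.652). Ndufaf4 was at 52.6 ± 9.3 CPM (14.5 ± 2.6 per kb), Ndufaf3 at 20.4 ± 3.1 CPM (13.7 ± 2.1 per kb) and Ndufaf5 at 15.8 ± 2.5 CPM (13.6 ± 2.1 per kb). These 3 complex I factors overlapped per kb. Ndufaf6 and Ndufaf7 were each at 10.4 CPM per kb and Ndufaf1 at 9.13. Ndufaf7 had the smallest CV of all detected members, 2.05%. Atp5sl and Atp5s were the lowest, at 4.27 ± 0.46 and 3.66 ± 0.51 per kb.

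Assembly factors outside the symbol rule, and regulators, were taken from lists. Of 54 such genes listed, 52 were in the table and 50 were detected. Counts detected were 7 of 7 for complex I assembly, 4 of 4 for complex II, 6 of 6 for complex III, 19 of 20 for complex IV and 3 of 3 for complex V. The exception, Pet117, had 0.413 ± 0.116 CPM. The median of all of them was 24.3 CPM and 14.6 CPM per kb, and that of the regulators was 49.9 CPM and 16.8 CPM per kb. By CPM, not scaled for length, Lrpprc, which stabilizes mitochondrial mRNAs, was the highest at 184 ± 15.6 CPM (42.0 CPM per kb), followed by Coa5 at 167 ± 13.4 (43.3 per kb) and, among the regulators, Tfam, the mitochondrial transcription and packaging factor, at 94.9 ± 5.8 (22.8 per kb). Per kb the order differed, with the complex III factor Uqcc2 (142.5) and the complex IV factors Cox17 (106) and Cox14 (65.2) highest. Of the factors whose motifs were searched, Yy1 was at 92.8 ± 5.6 CPM, Gabpa at 54.8 ± 1.6 and Nrf1 at 41.2 ± 3.7. Of the PGC-1 family of coactivators, Pprc1 was at 88 ± 5.5 CPM and Ppargc1b at 12.7 ± 3.2, whereas Ppargc1a had 0, 3 and 2 counts, at or below the limit of 3 counts in every library. In the test of variation, 0 of 50 were called by edgeR, against 0.643% of all genes tested. An unadjusted edgeR p under 0.05 was found for 3 of the 50, against 5.90% of all genes tested. These were the copper chaperone Cox17 (edgeR adjusted p = 0.404), Coa6 (edgeR adjusted p = 0.707) and Cox10 (edgeR adjusted p = 0.751).

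Apart from Ndufs5, single members did not stand out between replicates. The 4 members with counts too low for the test were Cox6a2, Cox6b2, Cox8b and Cox8c. Of the 89 tested, 5 had an unadjusted p under 0.05, against 698 of all genes (5.90%). They were Ndufs5, Ndufaf2, Uqcrb, Atp5k (41.2, 60.03 and 54.5 CPM, edgeR adjusted p = 0.790) and Ndufa5 (61.3, 77.5 and 86.7 CPM, edgeR adjusted p = 0.816). In each of these 5 genes replicate 1 was the lowest library. By CPM it was the lowest in 73 of the 88 detected members (83.0%), against 30.6% of all detected genes. The CV of the 88 detected members had a median of 10.3% and ranged from 2.05% for Ndufaf7 to 25.4% for Cox4i2, against a median of 9.80% for all detected genes.

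The members did move together by small amounts. The log2 ratio of each library to the mean of the other libraries was taken from CPM scaled by TMM, the edgeR normalization for composition. In replicate 1 its median over the 88 detected members was -0.22, with 2 members above 0 (Cox4i2 and Ndufv1), against a median of -0.0017 and 49.7% above 0 over all detected genes. In replicate 2 the median was 0.18, with 84 members above 0, against 50.9% of all genes. In replicate 3 it was 0.03, with 54 members above 0, and it became -0.0036 when only library totals were used for scaling. By CPM, replicate 2 was the highest library for 72 of 88 members, replicate 3 for 16 and replicate 1 for 0, whereas over all detected genes the shares were 33.3, 28.2 and 38.5%. In replicate 1 the direction was the same in each complex, with medians of -0.21 for complex I, -0.14 for II, -0.22 for III, -0.25 for IV and -0.22 for V. In replicate 2 the median of each complex was above 0. In replicate 3 complex IV had a median of -0.016, with 6 of 15 members above 0. The medians there were 0.009 for complex I, 0.056 for II, 0.0009 for III and 0.058 for V. These are descriptions of 3 libraries of 1 group, and in bulk RNA a change in the share of some cells and a change in RNA per cell cannot be told apart.

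**Figure D4:**
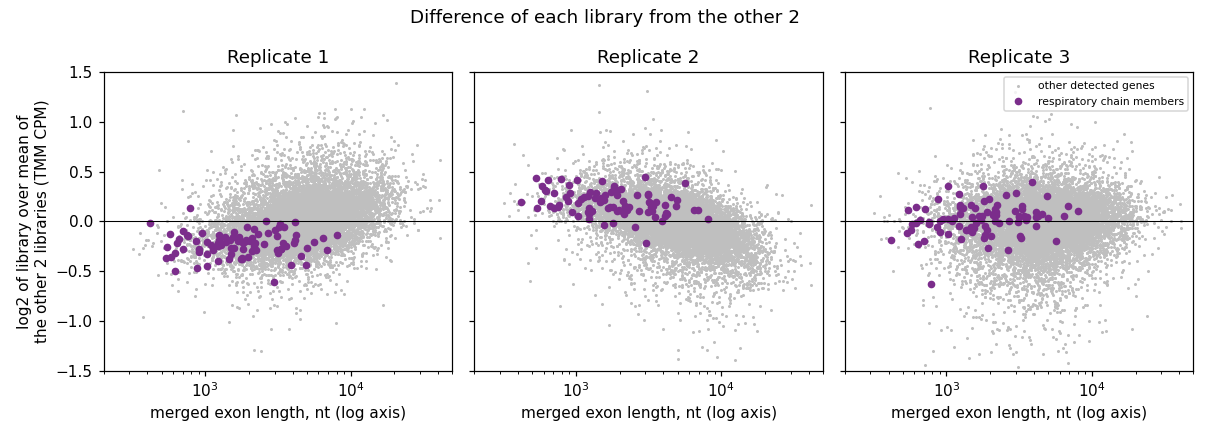
Log2 ratio of each library to the mean of the other libraries (TMM-scaled CPM) against merged exon length (log axis), with respiratory chain members in purple and other detected genes in grey; genes beyond 1.5 on the vertical axis are not drawn. The members lie at the short end, with 2 of 88 above 0 in replicate 1 and 84 of 88 above 0 in replicate 2, and the cloud of other genes slopes with length in both.

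Transcript length moved with this pattern. The detected members had a median merged exon length of 1795 nt and a median main transcript of 863 nt, against 4581 and 2965 nt for all detected genes. Over 11482 genes, the log2 ratio changed by 0.094 per doubling of merged exon length in replicate 1, by -0.12 in replicate 2 and by 0.02 in replicate 3. The 742 detected genes with a main transcript under 1000 nt, members included, had medians of -0.21 in replicate 1 and 0.19 in replicate 2. The 51 members in that length class had -0.26 and 0.21. The 37 longer members had medians of -0.19 and 0.11, with 1 and 33 of them above 0, and the 10740 longer genes, which were not matched to them in length, had 0.01 and -0.01. After a trend on log2 merged exon length and GC content was removed, the members' medians were -0.09 in replicate 1, with 22 of 88 above 0, 0.03 in replicate 2, with 56 above 0, and 0.05 in replicate 3, with 57 above 0. Over all genes 47.2, 51.6 and 53.9% were then above 0. With main transcript length in the trend the members' medians were -0.05, -0.02 and 0.05, so the direction in replicate 2 turned. In complex V all 15 members remained below 0 in replicate 1 after removal of the merged-exon trend, with a median of -0.18, whereas in complex IV 7 of 15 were above 0 and the median was -0.0015. The part of length, or of anything else that varies between the libraries, in the members' common movement was not tested further.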

How the data were processed

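RNA was extracted with ISOGEN and poly(A) libraries were made with a directional kit, per the labels' protocols. The submitters' processing notes name STAR and mm10. How reads were counted, with which annotation and strand setting, is not given in the sources used here. Overlapping genes may therefore share reads. The authors deposited estimated counts per gene symbol, whole within 0.01 except in 578 genes (2.37%). They were rounded for all steps except the Ndufs5 and Cox7c sums. The 27 rows named by dates were left out, and CPM used the total of 24384 named genes.

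Gene positions, lengths and copies came from GENCODE on mm10 (23999 genes matched, 98.4%; BLAST+ 2.17.0). The main transcript was the APPRIS principal one with a RefSeq match, the best support and the shortest length. The test of variation between libraries used edgeR 4.0.16 under R 4.3.3 (TMM, filterByExpr, trended dispersion, intercept only, deviance against chi-square with 2 degrees of freedom, Benjamini-Hochberg over all genes, threshold 0.05). The script was tested on simulated data. The usual quasi-likelihood comparison needs groups, and there was 1. The common biological CV was 11.6%. Each pair of libraries differed by more than sampling noise (12.0 to 16.3 chi-square units per degree of freedom). Isoform log2 ratios used a pseudocount of 0.1, added after any length scaling and so in CPM per kb on the per kb scales. Intervals are exact Clopper-Pearson at 95% and, like the 3-count limit, cover counting error only. Python 3.11.15, SciPy 1.17.1, pandas 2.3.3 and DESeq2 1.42.0 (size factors) served the rest.

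Per group of members, the genes named are the 5 highest and 3 lowest detected per kb, undetected members, isoform genes, members called or with the 5 smallest p, fractional members, and others where a role is described; some genes are not reported here. Members, lists and tests were chosen with earlier results of these data known. Alternatives were other scalings, filters, dispersions, lengths and pseudocounts, and leaving out each library. The summed Ndufs5 rows and the main transcript length were added after seeing the data.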

Additional observations from a re-analysis of the deposited data

Results flagged for a closer look

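Outside the measured genes, 27 rows of the table carried calendar dates in place of symbols and held 139039 counts over the 3 libraries, far above the limit of 3 counts that a count of 0 allows. They took 0.306, 0.295 and 0.281% of the counts of replicates 1 to 3, and none of them was a member. Single outlying libraries were not tested for, because the group had 3 samples.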

How the results depend on the processing

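Detection, the members' share of counts and most other values kept their direction and size, in 100 of 150 comparisons with an alternative. No paired analysis was possible because there was 1 group. The single call among the members went to 0 with genes of fractional counts left out and with the Ndufs5 and BC002163 rows summed, and ranged from 0 to 1 when each replicate was left out. Calls over all genes, 76, rose to 116 with common dispersion and were 36 to 52 when each replicate was left out, when fewer samples were tested. Complex medians depend on the length by construction. For complexes I, II, III, IV, V and the assembly group they were 82.0, 245, 157, 151, 254 and 15.8 CPM with no scaling, 76.7, 111, 142, 94.0, 199 and 10.4 CPM per kb of longest transcript, and 87.8, 111, 177, 222, 301 and 10.4 per kb of main transcript. With detected members only they were 53.5 for complex I and 138 for complex IV, and without fractional members 53.5 for complex I. Mean log2 isoform ratios per kb of merged exon used a pseudocount of 0.1 CPM per kb. They were 4.07 for Cox4i1/Cox4i2, 8.82 for Cox6a1/Cox6a2, 11.59 for Cox6b1/Cox6b2, 5.81 for Cox7a2/Cox7a1 and 2.26 for Cox7b/Cox7b2. They were 11.29 for both Cox8a pairs, 2.60 for Atp5g3/Atp5g1 and 0.52 for Atp5g3/Atp5g2. Against partners at or near 0 they are set by the pseudocount. With 1 CPM per kb they were 7.21 for Cox6a1/Cox6a2, 8.27 for Cox6b1/Cox6b2, 5.47 for Cox7a2/Cox7a1 and 7.98 for both Cox8a pairs. With no length scaling they were 5.04 for Cox4i1/Cox4i2, 11.09 for Cox6b1/Cox6b2, 6.59 for Cox7a2/Cox7a1, 3.42 for Cox7b/Cox7b2, 10.60 for both Cox8a pairs, 1.43 for Atp5g3/Atp5g1 and 0.90 for Atp5g3/Atp5g2. Per kb of main transcript they were 5.01, 11.79, 2.54, 1.17 and 0.93 for Cox4i1/Cox4i2, Cox6b1/Cox6b2, Cox7b/Cox7b2, Atp5g3/Atp5g1 and Atp5g3/Atp5g2. No ratio changed sign. The members' median log2 difference was -0.0871 in replicate 1 and 0.0307 in replicate 2 with the length and GC trend removed, and -0.0528 and -0.0196 with main transcript length in that trend, the latter opposite to 0.18. In replicate 3 it was -0.0036 with library totals only, opposite to 0.03. The cause was not tested. Depth limits statements on Cox6a2 and on the 3 genes without counts.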

Other observations

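Ndufa4l2, a relative of Ndufa4 known to be induced by hypoxia and left out by the symbol rule, had 204, 162 and 35 counts (11.5, 11.6 and 2.27 CPM). It was far lower in replicate 3 than in both others and varied beyond genes of similar count (edgeR adjusted p = 5.23e-06). Cox4i2, the member with the largest CV among those detected, was also lowest in replicate 3, at 9.27 CPM, without passing that test. Ndufa4 itself had 218, 270.0 and 224 CPM and was not lowest there.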
